A study of Homo sapiens with 21 samples.

Results

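The genes described here are 51 genes of ribosome biogenesis and of the nucleolus, measured as mRNA in BT-549 triple-negative breast cancer cells. They were taken by name, as a class of known MYC targets whose role in making ribosomes is well known. The rule itself uses no measured value, but the lists were chosen with earlier results of these data known. All 51 were found by symbol among the 42339 gene rows of the count table. They fall into 7 roles: 5 genes of RNA polymerase I transcription (POLR1A, POLR1B, POLR1C, UBTF, RRN3), 5 abundant nucleolar proteins (NCL, NPM1, NOLC1, GNL3, DDX21), 4 proteins of box C/D and 4 of box H/ACA small nucleolar ribonucleoproteins (snoRNPs), 12 genes of the small subunit (SSU) processome, 6 late factors of the small subunit and 15 factors of the large subunit.

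Ribosomes are assembled in the nucleolus. RNA polymerase I transcribes one long precursor of the ribosomal RNAs, with UBTF holding the gene open and RRN3 bringing the polymerase to the promoter. Box C/D snoRNPs, which carry FBL, NOP56 and NOP58, methylate the precursor, and RRP9 belongs to the U3 snoRNP, a box C/D particle that helps to cut it, while box H/ACA snoRNPs, built on DKC1, GAR1, NHP2 and NOP10, convert uridine to pseudouridine. The SSU processome folds and cuts the part that becomes the small subunit, and a separate line of helicases, scaffolds and GTPases matures the large subunit. The transcription factor MYC is known to drive many of these genes, which is why they are often read as a sign of MYC activity and of growth.

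The libraries ask how these genes behave when cells move from monolayer (2D) to passaged mammospheres (3D), and when MUC1-C or MYC is targeted in the mammospheres. Poly(A) RNA was sequenced from 21 libraries in 7 groups of 3, all of 1 cell line. The 2D cells grew in RPMI1640 with serum and insulin, and the 3D cells grew unattached as sphere passage 6 in MammoCult medium, so growth form and medium changed together. The 3D + GO-203 group was the same passage with 0.75 umol/L GO-203, a cell-penetrating peptide against the MUC1-C cytoplasmic domain. The tet-MUC1shRNA mammospheres (passage 6) and the tet-MYCshRNA mammospheres (passage 8) carried a doxycycline-inducible hairpin and were given 0.1% DMSO (vehicle) or 500 ng/ml doxycycline (DOX). The titles of the 2D, 3D and GO-203 groups name no hairpin. Each target was hit by a single hairpin, no line with a control hairpin and DOX is among these libraries, and a DOX time was found only for the tet-MUC1shRNA comparison, so an action of DOX itself cannot be told apart from silencing within 1 line. Cells were grown in triplicate by the study's methods, which do not say whether the cultures came from separate passages or days, so the p-values measure the spread between these libraries.

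Libraries held 38026597 to 99751717 counts, and the 51 genes took 0.386 to 0.854% of them. MUC1 stood at 101, 83.2 and 86.6 CPM (counts scaled to a common library size by trimmed mean of M values, TMM, over all libraries) in vehicle-treated tet-MUC1shRNA mammospheres and at 19.7, 21.2 and 23.3 CPM after DOX. MYC stood at 439, 418 and 386 CPM in vehicle-treated tet-MYCshRNA mammospheres and at 244, 279 and 297 CPM after DOX, so the MUC1 transcript was reduced further than the MYC transcript. Both hairpin lines thus matched their labels. VIM ranged from 1076.0 to 2486.0 CPM, EPCAM, ESR1, PGR, KRT8 and KRT18 stayed at or below 1.505 CPM in every library, and the leukocyte gene PTPRC at or below 1.486 CPM. ERBB2 ranged from 18.4 to 42.0 CPM, the endothelial gene PECAM1 reached 10.05 CPM, and COL1A1, which mesenchymal tumour cells also make, ran from 51.55 to 1112.0 CPM. Markers that were called in a comparison are given beside it. Counting reads as deposited, mates of a pair appear to have been counted separately, since 2350 to 3250 genes per library had exactly 2 counts and 536 to 741 had 3, so a count is not an independent fragment.

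Of the 51 genes, 4 rest on uncertain counts. NOP2 shares 54.4% of its exon bases, PPAN 49.2% and LTV1 34.7% with an overlapping gene, where reads cannot be given to one of them with certainty. NOP2, a methyltransferase of the large-subunit RNA, was very low, at 0.133, 0.157 and 0.222 CPM in 2D and 0.332, 0.488 and 0.465 CPM in 3D, down to 4 counts in 1 library. IMP3, a small protein of the SSU processome, stayed between 2.20 and 8.63 CPM. Reads of NPM1, which has 49 pseudogenes, and of 12 other members with pseudogenes named after them may also be shared.

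A map of all members over all libraries shows the main pattern before any test. For 28 of 51 genes the lowest group mean was in DOX-treated tet-MYCshRNA mammospheres, and for 11 it was in 2D. The highest mean was in vehicle-treated tet-MYCshRNA mammospheres for 26 genes and in the 3D cells without a named hairpin for 11. Over the 51 genes, the median level relative to each gene's own mean was -0.34 to -0.25 on the log2 scale in the 2D libraries, 0.27 to 0.31 in 3D, 0.14 to 0.18 with GO-203, 0.12 to 0.13 and -0.08 to 0.02 in tet-MUC1shRNA mammospheres without and with DOX, and 0.35 to 0.46 and -0.65 to -0.54 in tet-MYCshRNA mammospheres without and with DOX. Only the 3D libraries and the others with vehicle or GO-203 lay above 0 throughout, and the ranges of the DOX-treated tet-MYCshRNA and 2D libraries did not overlap.

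**Figure D1:**
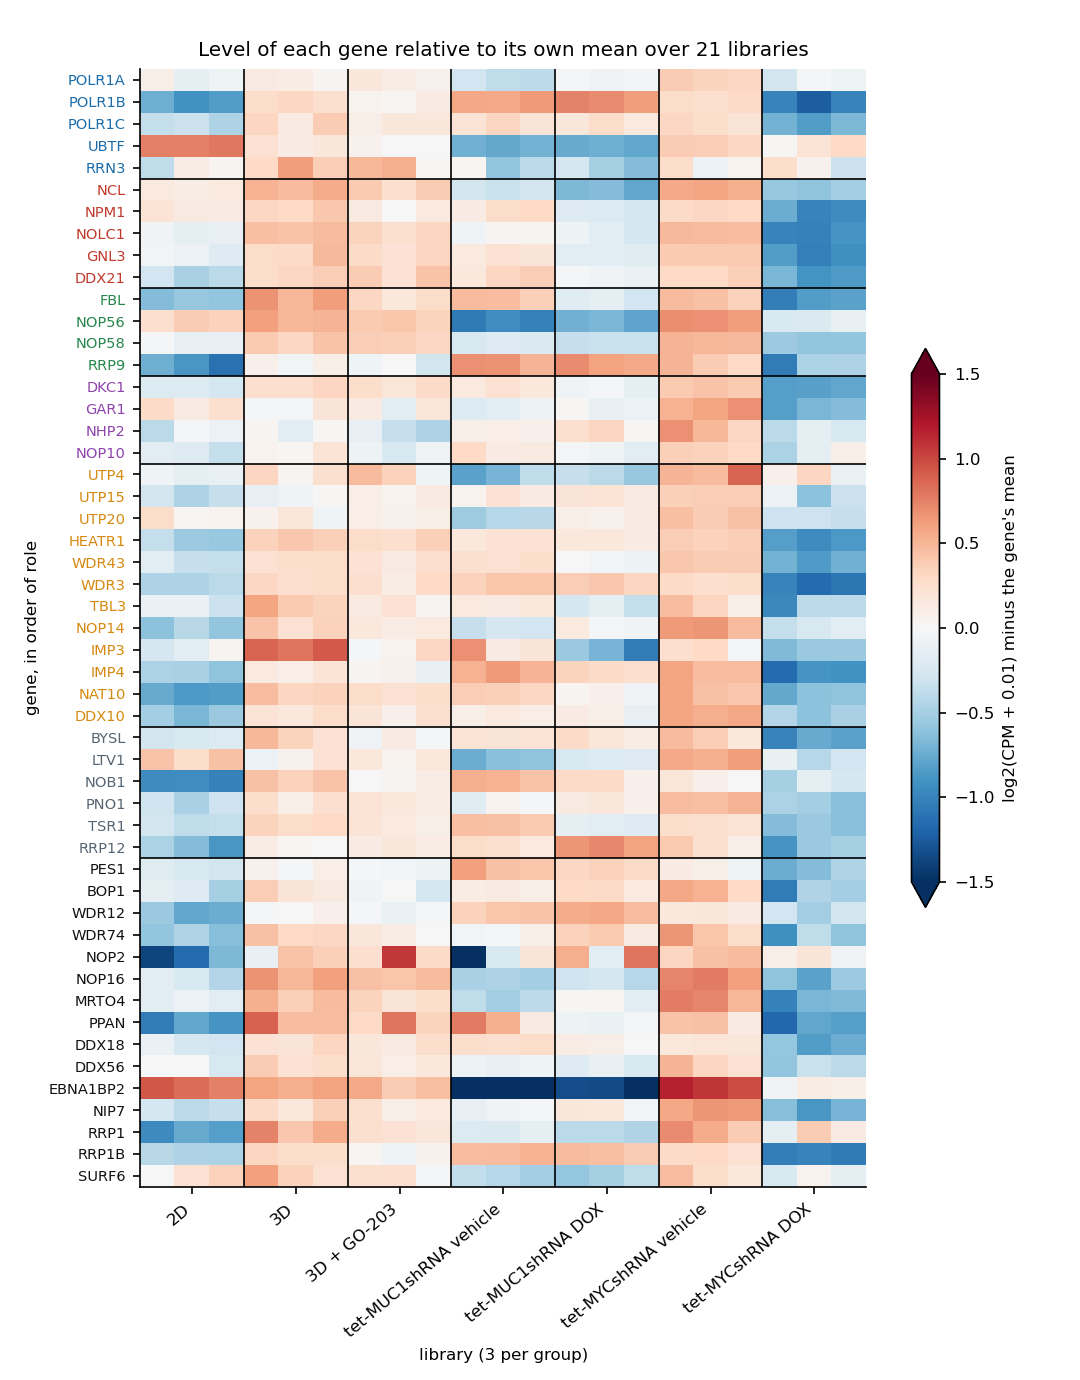
Each row is 1 of the 51 genes in order of role and each column 1 of the 21 libraries, 3 per group; colour gives log2(CPM + 0.01) minus the gene's mean over all libraries, red above and blue below, with the scale ending at 1.5 on either side. Blue columns mark 2D and, more strongly, DOX-treated tet-MYCshRNA mammospheres, and the row of EBNA1BP2 is dark blue in both tet-MUC1shRNA groups.

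Ribosome biogenesis genes stood mostly higher in 3D than in 2D cells. At an edgeR quasi-likelihood adjusted p below 0.1, the threshold used throughout, 43 of 51 rose and 4 fell, against 32.0% of all 19190 genes tested that rose and 31.7% that fell. The median log2 fold change was 0.58 over the members and -0.007 over all genes tested. Of the rises 25 passed a 1.5-fold and 7 a 2-fold change. In bulk libraries such as these, fewer cells of a kind and less RNA per cell cannot be told apart, and CPM values are shares of each library.

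The genes of RNA polymerase I transcription did not all move in one direction. POLR1B, the second largest subunit of the enzyme, was measured at 55.0, 48.5 and 51.0 CPM in 2D and 111, 113 and 108 CPM in 3D. The 3D libraries were all above the 2D libraries, a log2 fold change of 1.095 (SE 0.06, edgeR adjusted p = 2.6e-10). POLR1A, the largest subunit, overlapped between 112, 95.9 and 100.3 CPM and 116, 113 and 108 CPM and did not pass the test (0.12, SE 0.07, edgeR adjusted p = 0.116). UBTF, the architectural factor of the ribosomal gene repeat, fell from 119.7, 119.9 and 123 CPM to 82.8, 76.8 and 79.5 CPM (-0.61, SE 0.06, edgeR adjusted p = 1.02e-07). This was the largest fall among the 51 genes and the only one past 1.5-fold. POLR1C (0.66) and the initiation factor RRN3 (0.50) rose.

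All 5 abundant nucleolar proteins and all 4 box C/D proteins rose. NPM1, the histone and ribosome chaperone of the outer nucleolus, moved least of the 5, from 1507, 1433 and 1420.0 CPM to 1616, 1606 and 1730.0 CPM (0.18, SE 0.05, edgeR adjusted p = 0.00535). DDX21, an RNA helicase that couples RNA polymerase I and rRNA processing, went from 554, 482 and 511 CPM to 820.3, 836 and 873 CPM (0.70, SE 0.06, edgeR adjusted p = 2.27e-08). In both, the groups did not overlap. FBL, the methyltransferase of box C/D snoRNPs, more than doubled, from 100.4, 106 and 104 CPM to 252, 222 and 243 CPM (1.204, SE 0.06, edgeR adjusted p = 3.29e-11). Its partner NOP56 rose less, from 101, 110.4 and 108 CPM to 130.0, 119 and 121 CPM (0.21, SE 0.06, edgeR adjusted p = 0.00654). Box H/ACA proteins were mixed: DKC1, the pseudouridine synthase, rose from 152, 152 and 146 CPM to 208, 209 and 219 CPM (0.49), NOP10 rose (0.33), GAR1 fell (-0.17) and NHP2 (0.12) did not pass. The fall of GAR1 was not called without 2D replicate 1 or 3 or without 3D replicate 1 or 2, where it ran from -0.16 to -0.10, and its libraries overlapped.

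Of the 12 SSU processome genes 11 rose, with a median log2 fold change of 0.69, and UTP20, a very long scaffold protein, was the exception at 165, 139.5 and 141 CPM in 2D and 142, 155 and 130.1 CPM in 3D (-0.07, SE 0.08, edgeR adjusted p = 0.49). HEATR1, another large scaffold, rose from 276, 242 and 237 CPM to 449.5, 466 and 453 CPM (0.85). Of the 6 late small-subunit factors 5 rose. NOB1, the endonuclease of the last cut to 18S rRNA, went from 37.6, 37.8 and 35.8 CPM to 97.5, 91.7 and 96.8 CPM (1.36, SE 0.06, edgeR adjusted p = 7.12e-12), with a wide gap between the groups. LTV1, an export factor, fell from 33.3, 29.96 and 33.8 CPM to 23.4, 25.9 and 28.9 CPM (-0.32, edgeR adjusted p = 0.00384). Of 15 large-subunit factors 13 rose, led by PPAN, at 1.89, 2.26 and 2.10 CPM in 2D and 7.23, 5.39 and 5.36 CPM in 3D (1.51, SE 0.17, edgeR adjusted p = 9.93e-07), and by RRP1, at 19.6, 22.7 and 21.6 CPM and 64.2, 50.5 and 55.9 CPM (1.41, SE 0.09, edgeR adjusted p = 4.57e-10). EBNA1BP2, a scaffold of the early large subunit, fell from 129, 122 and 115 CPM to 102, 99.3 and 103 CPM (-0.27, edgeR adjusted p = 0.000956).

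Vehicle-treated hairpin mammospheres, set in place of the 3D cells, gave the same main direction with different exceptions. Against 2D, 34 members were higher and 13 lower in vehicle-treated tet-MUC1shRNA mammospheres, where 36.1% and 37.8% of all genes were, and 48 were higher and 1 lower in vehicle-treated tet-MYCshRNA mammospheres, where 33.8% and 32.4% were. With the tet-MYCshRNA line, 3 of the 4 members that fell in 3D were called higher, EBNA1BP2 (log2 fold change 0.23), LTV1 (0.20) and GAR1 (0.39). With the tet-MUC1shRNA line, 6 of the 43 that rose in 3D were called lower, NOP56 (-1.33), UTP4 (-0.51), NCL (-0.44), MRTO4 (-0.30), NOP16 (-0.22) and NOP58 (-0.14). RRN3 lost its call with either line (-0.24 and 0.15), and NPM1 (0.07), DDX56 (-0.01) and NOP2 (0.69) lost theirs with the tet-MUC1shRNA line. UBTF was at 42.9, 41.7 and 43.4 CPM and 92.2, 91.1 and 87.9 CPM in the 2 vehicle groups, below 2D in both.

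A list of 107 further ribosome biogenesis genes moved in the same main direction, with 83 higher and 7 lower in 3D and a median of 0.41. EFL1, a GTPase that releases an anti-association factor from the large subunit, rose from 15.7 to 39.0 CPM on average (log2 fold change 1.31, SE 0.07, edgeR adjusted p = 1.17e-10), and EXOSC5, of the RNA exosome, from 9.28 to 20.4 CPM (log2 fold change 1.13, SE 0.10, edgeR adjusted p = 9.44e-08). EXOSC9, also of the exosome (log2 fold change -0.84, SE 0.07, edgeR adjusted p = 1.2e-08), and SDAD1, a large-subunit export factor (log2 fold change -0.59, SE 0.06, edgeR adjusted p = 2.45e-07), fell. Cell cycle genes went the other way beside these rises, since 6 of 10 proliferation genes fell and 2 rose, and their summed level was 3039.0 to 3102.7 CPM in 2D and 2303.6 to 2344.7 CPM in 3D. MKI67 fell from 824, 768 and 744 CPM to 529, 591 and 483 CPM. Of the cell type markers, COL1A1 was at 1017, 1112 and 1012 CPM in 2D and 61.5, 57.3 and 55.3 CPM in 3D, PECAM1 at 0, 0 and 0.0342 CPM and 7.10, 5.92 and 7.29 CPM, and PTPRC at 1.49, 1.25 and 1.03 CPM and 0.0415, 0.117 and 0.0310 CPM. All 6 of the 10 markers that could be tested were called, COL1A1, PTPRC and ERBB2 (log2 fold change -0.63) lower in 3D and PECAM1, KRT8 (1.51) and VIM (0.12) higher. The part of proliferation, of these marker changes and of the medium in the members' rise was not tested.

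**Figure D2:**
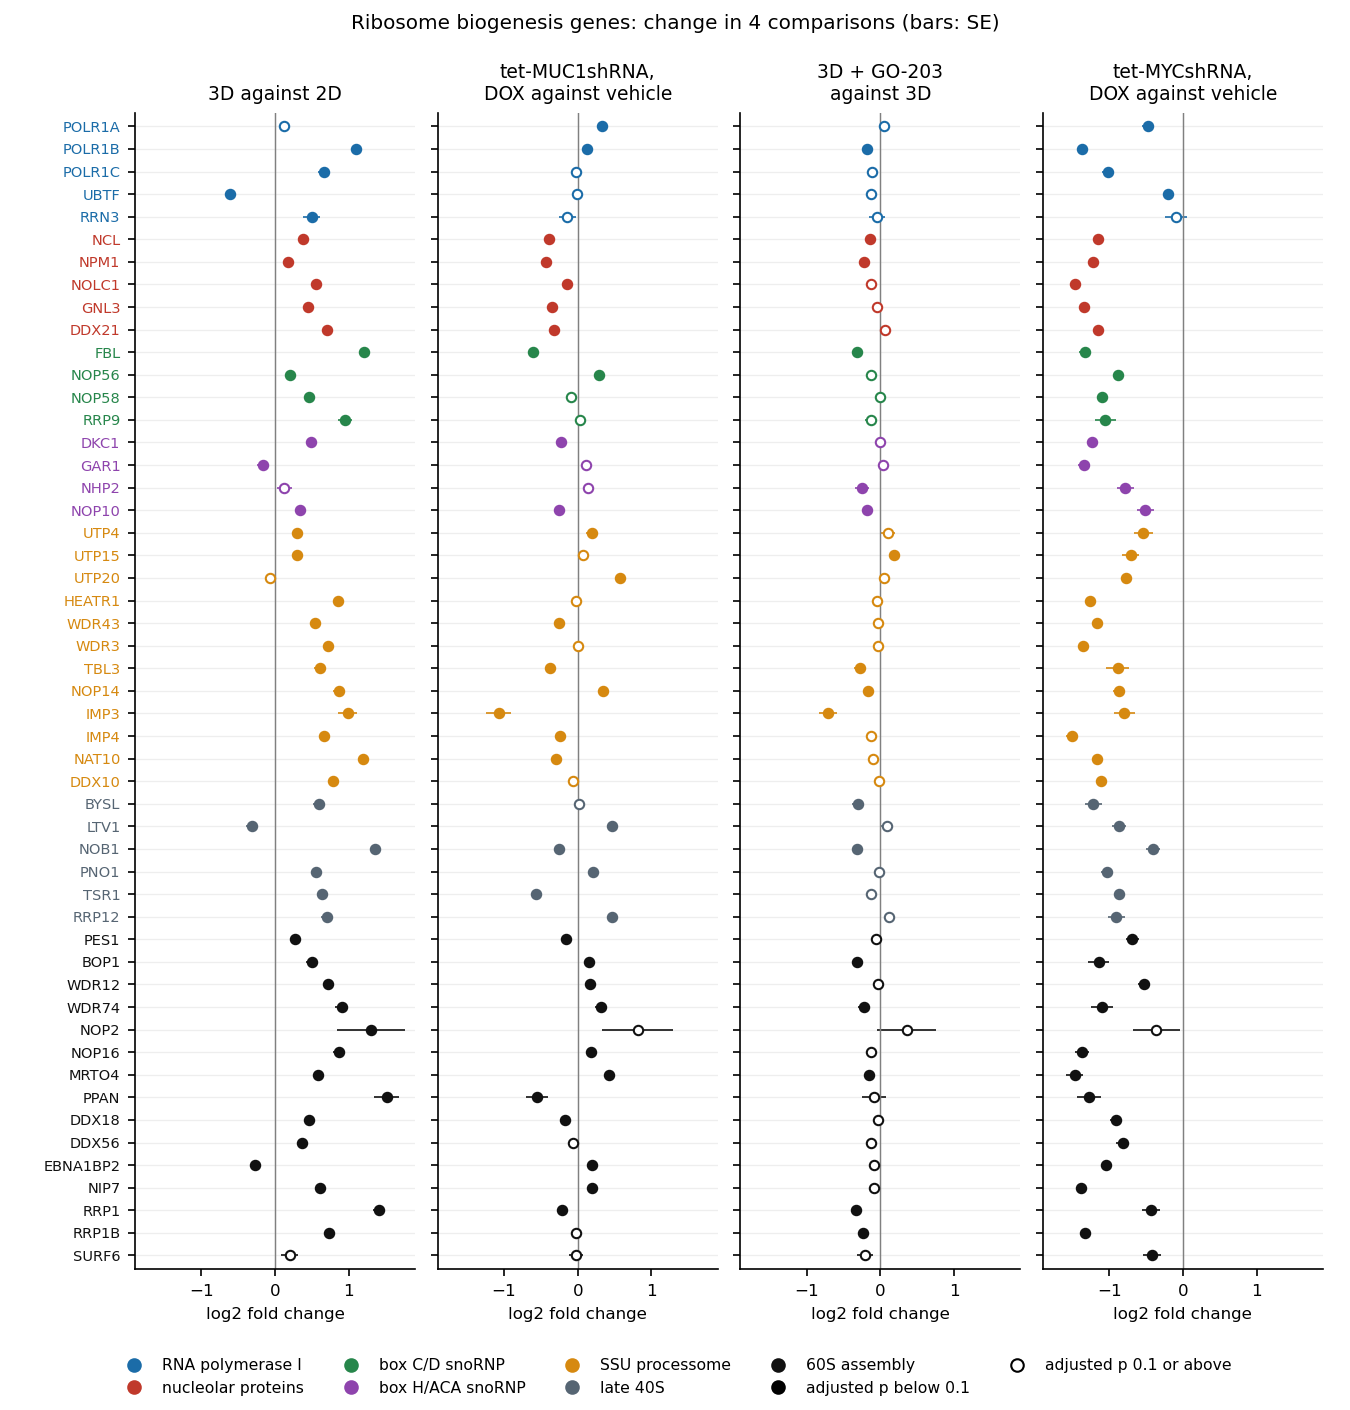
Log2 fold change (horizontal axis) of each of the 51 genes in the 4 comparisons, coloured by role, with bars of 1 SE; filled points passed an edgeR adjusted p of 0.1 and open points did not. Most points lie right of 0 in 3D against 2D, on both sides on MUC1 silencing, mostly just left of 0 with GO-203, and all lie left of 0 on MYC silencing.

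MUC1 silencing in mammospheres moved the members in both directions. Of 51, 16 rose and 19 fell, while 30.7% of all 19220 genes tested rose and 31.6% fell, so the members' shares were close to the background. The median log2 fold change was -0.02 over the members and 0.024 over all genes. The changes were small, since none of the rises and 2 of the falls passed 1.5-fold. The split depended on scaling: with library size alone in place of TMM, 29 members rose and 11 fell, and of all called genes 64.4% in place of 49.3% were higher. That scaling moved the median of all genes upward by 0.17, and the cause of this shift was not tested. Mitochondrially encoded transcripts took 2.6 to 2.8% of counts with vehicle and 6.4 to 6.7% with DOX. TMM computed without the mitochondrial genes moved the median of all genes by only 0.0093, and 17 members rose and 19 fell.

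The 5 abundant nucleolar proteins all fell, the one role in which every gene was called in the same direction here, although with library size alone NOLC1 was at 0.02 and not called. NPM1 was measured at 1421, 1578 and 1601 CPM with vehicle and 1137, 1135 and 1082 CPM with DOX (-0.43, SE 0.04, edgeR adjusted p = 4.51e-08). NCL, the nucleolar RNA-binding protein nucleolin, went from 475, 456 and 474 CPM to 359.9, 366 and 335 CPM (-0.38, SE 0.04, edgeR adjusted p = 7.78e-08). For both genes the DOX libraries lay below all vehicle libraries. GNL3 (-0.34), DDX21 (-0.32) and NOLC1 (-0.15) fell as well.

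The box C/D proteins were divided. FBL fell from 219, 217 and 201 CPM to 139, 144 and 129.6 CPM (-0.61, SE 0.05, edgeR adjusted p = 5.23e-10), while NOP56, which sits in the same snoRNP, rose from 40.6, 44.4 and 42.1 CPM to 51.3, 52.7 and 49.1 CPM (0.29, SE 0.05, edgeR adjusted p = 0.000118). POLR1A rose from 86.0, 80.5 and 80.3 CPM to 103, 101 and 102 CPM (0.34, SE 0.05, edgeR adjusted p = 3e-06), UBTF did not pass (0.00, SE 0.05, edgeR adjusted p = 0.947), and POLR1B rose slightly (0.12), a call lost without vehicle replicate 2, without DOX replicate 1 or with all 21 libraries in 1 fit. DKC1 (-0.23) and NOP10 (-0.25) fell, calls lost with library size alone. Each of these genes except UBTF and POLR1B had groups that did not overlap.

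Among SSU processome genes 3 rose and 5 fell. UTP20 gave the largest called rise of the 51 genes, from 94.5, 101 and 102 CPM to 145, 143 and 149.8 CPM (0.58, SE 0.05, edgeR adjusted p = 1.26e-09). IMP3 gave the largest fall, from 7.34, 4.97 and 5.19 CPM to 3.10, 2.81 and 2.20 CPM (-1.07, SE 0.17, edgeR adjusted p = 1.2e-05), at a low level. HEATR1 was measured at 393, 409 and 410.0 CPM and 391.8, 394 and 383 CPM (-0.03, SE 0.04, edgeR adjusted p = 0.551). Of the late small-subunit factors, LTV1 rose from 14.9, 16.0 and 16.3 CPM to 21.3, 21.5 and 21.7 CPM (0.47) and RRP12 from 75.0, 73.0 and 68.4 CPM to 98.1, 102 and 94.3 CPM (0.47, SE 0.05, edgeR adjusted p = 6.75e-08). TSR1, a GTPase-like factor that keeps unfinished small subunits from translating, fell from 238, 235 and 229 CPM to 158, 157 and 152 CPM (-0.57, SE 0.04, edgeR adjusted p = 1.97e-10). The large subunit had 7 rises, MRTO4 the largest of them (0.42), and 4 falls, PPAN the largest (-0.55), and RRP1B was called in neither direction (-0.03).

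Of the 107 further genes 35 were higher and 33 lower, while 30.7% and 31.6% of all genes tested were, so these shares too were close to the background. POP1, of the RNase MRP that cuts the precursor rRNA, rose from 32.5 to 57.4 CPM (log2 fold change 0.84, SE 0.06, edgeR adjusted p = 6.68e-11), and GRWD1, a large-subunit factor, from 43.7 to 68.5 CPM (log2 fold change 0.67, SE 0.05, edgeR adjusted p = 2.51e-10). TTF1, which ends RNA polymerase I transcription, fell from 14.7 to 7.60 CPM (log2 fold change -0.92, SE 0.09, edgeR adjusted p = 3.31e-08) and NOP53, a late large-subunit factor, from 42.4 to 23.0 CPM (log2 fold change -0.86, SE 0.06, edgeR adjusted p = 2.57e-10). Beside them 3 of 10 proliferation genes rose and 4 fell, their summed level being 1647.5 to 1699.9 CPM with vehicle and 1534.4 to 1588.0 CPM with DOX, and MYC itself was higher after DOX, at 241, 255 and 239 CPM with vehicle and 292, 294 and 273 CPM with DOX (log2 fold change 0.25, SE 0.04, edgeR adjusted p = 5.01e-05). The luminal keratins rose from near 0, KRT8 from 0, 0.0471 and 0.0787 CPM to 1.38, 1.51 and 1.14 CPM and KRT18 from 0, 0.0941 and 0.0197 CPM to 0.974, 0.892 and 0.795 CPM, and COL1A1 rose from 165, 165 and 165 CPM to 231, 230.0 and 218 CPM. VIM rose as well (log2 fold change 0.18), while PECAM1 (-0.43) and ERBB2 (-0.25) fell, so that 4 of 7 markers tested rose and 2 fell. The part of these markers and of proliferation in the members' changes was not tested.

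Some members were low in the tet-MUC1shRNA line already with vehicle. For 3 members its vehicle mean was below 0.5 of that of the 3D cells without a named hairpin of the same passage. EBNA1BP2 was at 23.3, 23.1 and 21.2 CPM against 102, 99.3 and 103 CPM in 3D, NOP56 at 40.6, 44.4 and 42.1 CPM against 130.0, 119 and 121 CPM, and NOP16 at 21.6, 21.9 and 21.2 CPM against 48.1, 42.8 and 46.2 CPM. None of these ranges overlapped. The vehicle-treated tet-MYCshRNA line had no member below 0.5 of the 3D mean. MKI67 was also low in the tet-MUC1shRNA line, at 201, 211 and 199.5 CPM with vehicle, and the part of growth or of the line in these levels was not tested.

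**Figure D3:**
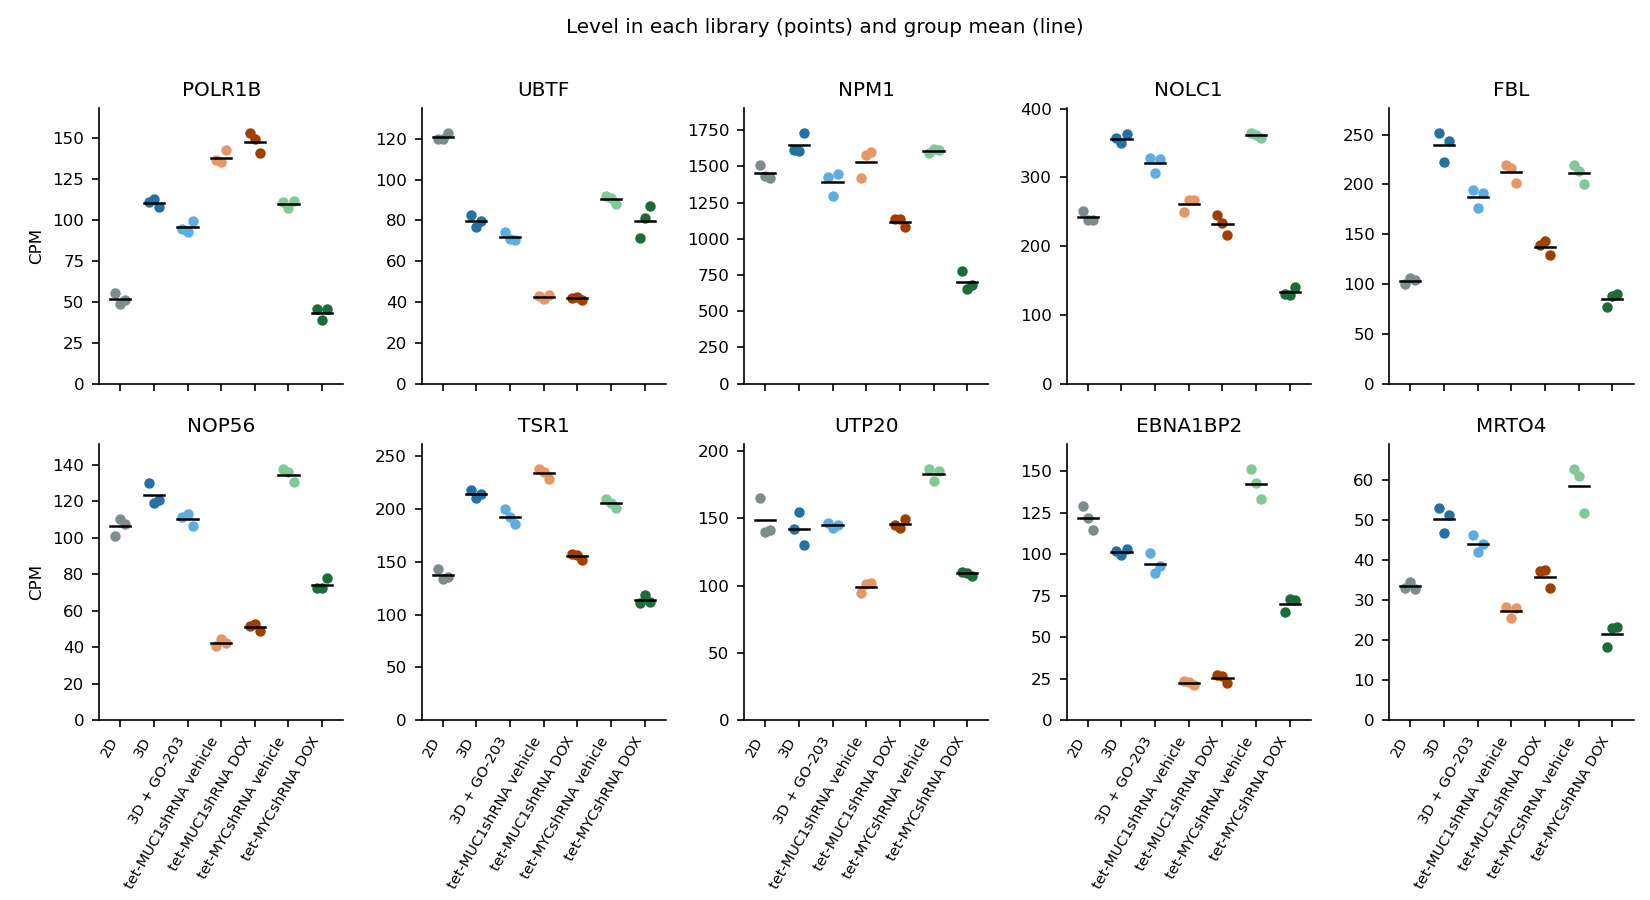
CPM (vertical axis, from 0) of 10 of the 51 genes in each of the 21 libraries (points), with a line at each group mean; groups run from 2D on the left to DOX-treated tet-MYCshRNA mammospheres on the right. POLR1B, NPM1, NOLC1, FBL, TSR1 and MRTO4 were lowest in the last group, UBTF, NOP56 and EBNA1BP2 were lowest in the tet-MUC1shRNA mammospheres, and UTP20 was lowest there with vehicle.

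GO-203 lowered a minority of the members, most of them by a little. Of 51, 16 fell and 1 rose, against 12.9% and 11.1% of the 18488 genes tested, and the median log2 fold change was -0.11 over the members and 0.015 over all genes. Only IMP3 passed 1.5-fold, from 8.33, 7.95 and 8.63 CPM in 3D to 4.5, 4.72 and 5.66 CPM with GO-203 (-0.71, SE 0.12, edgeR adjusted p = 0.000278). Without 3D replicate 1 the falls dropped to 9, with BYSL, MRTO4, NCL, NHP2, NOP14, TBL3 and WDR74 no longer called. These 3D libraries are also those of the comparison with 2D, so the 2 comparisons are not independent.

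The falls touched every role. FBL went from 252, 222 and 243 CPM to 195, 176 and 191 CPM (-0.32, SE 0.06, edgeR adjusted p = 0.000401) and RRP1 from 64.2, 50.5 and 55.9 CPM to 45.0, 44.4 and 43.0 CPM (-0.33, SE 0.07, edgeR adjusted p = 0.00181). NOB1 fell from 97.5, 91.7 and 96.8 CPM to 72.3, 74.4 and 78.0 CPM (-0.32, SE 0.06, edgeR adjusted p = 0.000405). In these 3 genes every treated library was below every 3D library. NPM1 fell (-0.22), as did NCL (-0.14), POLR1B (-0.18), RRP1B (-0.24) and BOP1 (-0.31), a partner of PES1 in the large subunit, though POLR1B was not called without GO-203 replicate 1. UTP15, of the SSU processome, was the single rise, from 68.9, 72.0 and 75.9 CPM to 80.6, 77.8 and 82.8 CPM (0.18, edgeR adjusted p = 0.0284), a call lost with all 21 libraries in 1 fit or without 3D replicate 1 or GO-203 replicate 3. The box H/ACA falls depended on single libraries: NOP10 (-0.18) was not called without 3D replicate 3 or GO-203 replicate 2, NHP2 (-0.25) was not called without 3D replicate 1 or 3 or GO-203 replicate 2 or 3, and neither was called with all 21 libraries in 1 fit. HEATR1 (-0.04), UTP20 (0.05), DKC1 (0.00), DDX21 (0.06), DDX18 (-0.02) and POLR1A (0.05) did not pass.

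Of 107 further genes 29 fell and 3 rose with GO-203, among the falls NOP53 (log2 fold change -0.43, SE 0.08, edgeR adjusted p = 0.000676) and the polymerase subunit POLR1G (log2 fold change -0.37, SE 0.10, edgeR adjusted p = 0.0085), among the rises POLR1F, another subunit (log2 fold change 0.21, SE 0.06, edgeR adjusted p = 0.0132) whose libraries overlapped, and NOL6 (log2 fold change 0.19, SE 0.06, edgeR adjusted p = 0.0316). Of 10 proliferation genes 9 fell with GO-203, from a summed 2303.6 to 2344.7 CPM to 1739.7 to 1951.0 CPM, and COL1A1 rose from 61.5, 57.3 and 55.3 CPM to 110.0, 107 and 103 CPM, the single call among 6 markers tested. The part of these genes in the members' falls was not tested. MYC was at 589.5, 553 and 601 CPM in 3D and 556, 536 and 601 CPM with GO-203 (log2 fold change -0.01, SE 0.05, edgeR adjusted p = 0.908). Across the 51 genes the log2 fold changes with GO-203 and on MUC1 silencing, which share no libraries, gave a Pearson r of 0.568, and 0.291 without the 4 genes of uncertain counts, as a description only. The genes are not independent points.

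A test of the difference between the 2 ways of targeting MUC1 called 18 members with a more positive change on MUC1 silencing than with GO-203. It called 9 with a more negative one, against 20.8% and 24.1% of 20829 genes. The MUC1 transcript was higher with GO-203, at a mean of 255.1 CPM against 207.0 CPM in 3D (log2 fold change 0.33, SE 0.07, edgeR adjusted p = 0.00191). The 2 effects come from a hairpin line and from cells without a named hairpin, and no GO-203 time was found. These cannot be told apart from the way of targeting. MRTO4 (0.58, SE 0.09, edgeR adjusted p = 8.8e-06), WDR74 (0.54) and UTP20 (0.53) differed most toward MUC1 silencing. TSR1 (-0.44, SE 0.07, edgeR adjusted p = 5.95e-06), DDX21 (-0.38) and GNL3 (-0.30) differed most the other way among the members called. PPAN (-0.46, edgeR adjusted p = 0.13) and IMP3 (-0.36, edgeR adjusted p = 0.192), both of uncertain counts, had values in the same range and did not pass. This split too moved with scaling, to 29 and 2 with library size alone, where GNL3 (-0.14) was no longer called. With no filter beyond 1 count, DKC1, NAT10, NPM1 and WDR43 lost their more negative calls and PNO1 its more positive call. Of 10 proliferation genes 7 were called more positive and none more negative. Of 7 markers tested KRT8 (5.06), KRT18 (4.19) and VIM (0.20) were called more positive, PECAM1 (-0.45) and COL1A1 (-0.43) more negative. Their part in the members' difference was not tested.

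MYC silencing lowered nearly the whole machinery, whose genes had been taken as a class of known MYC targets. Of 51 members 49 fell and none rose, while 28.1% of the 19951 genes tested fell and 30.3% rose. The median log2 fold change was -1.04 over the members and 0.009 over all genes, 41 members fell by more than 1.5-fold and 28 by more than 2-fold, and all 51 values lay below 0, so that none rose at an unadjusted p below 0.05 or with DESeq2 either. RRN3, at 25.7, 19.99 and 22.0 CPM with vehicle and 25.4, 22.2 and 16.9 CPM with DOX (-0.09, SE 0.15, edgeR adjusted p = 0.651), and NOP2 (-0.36, edgeR adjusted p = 0.375) were the 2 not called. The MYC transcript itself changed less than the median member (log2 fold change -0.62, SE 0.08, edgeR adjusted p = 9.05e-05).

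All roles took part. The log2 fold changes of the 5 abundant nucleolar proteins ran from -1.15 to -1.46. NPM1 dropped from 1592, 1621 and 1610.0 CPM to 777, 651 and 679.6 CPM (-1.21, SE 0.07, edgeR adjusted p = 4.58e-07). NOLC1, a chaperone of snoRNPs in the nucleolus, dropped from 365, 362 and 358 CPM to 129.9, 129 and 141 CPM (-1.46, SE 0.06, edgeR adjusted p = 3.4e-08). DDX21 dropped from 832, 834 and 867 CPM to 422, 363 and 375 CPM (-1.15). In all 3 genes every DOX library was below every vehicle library.

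RNA polymerase I genes spread widely. POLR1B fell from 111, 107 and 111 CPM to 45.6, 38.7 and 45.4 CPM (-1.36, SE 0.08, edgeR adjusted p = 2.93e-07) and POLR1C by a log2 fold change of -1.01. POLR1A fell less, from 137, 133 and 130.2 CPM to 87.1, 103 and 101 CPM (-0.48, SE 0.07, edgeR adjusted p = 0.000288). UBTF barely passed, at 92.2, 91.1 and 87.9 CPM and 71.3, 81.3 and 86.9 CPM (-0.20, SE 0.08, edgeR adjusted p = 0.0515), and was not called without vehicle replicate 1 or 2 or with the replicate block. The 2 factors that set up the promoter, UBTF and RRN3, thus gave the smallest changes of the 51 genes.

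All 4 box C/D and all 4 box H/ACA proteins fell. FBL went from 219.6, 214 and 200.3 CPM to 76.5, 88.3 and 90.0 CPM (-1.33, SE 0.07, edgeR adjusted p = 2.59e-07) and NOP56 from 138, 136 and 130.4 CPM to 72.3, 72.6 and 78.1 CPM (-0.88, SE 0.06, edgeR adjusted p = 1.24e-06). DKC1 went from 229.7, 235 and 231 CPM to 98.7, 99.7 and 102 CPM (-1.23, SE 0.06, edgeR adjusted p = 6.47e-08), and GAR1 fell as well (-1.34). NOP10, the smallest protein of the box H/ACA set, fell less, from 81.8, 81.1 and 78.7 CPM to 46.1, 58.4 and 67.8 CPM (-0.51, SE 0.11, edgeR adjusted p = 0.00372), with a wide spread after DOX.

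All 12 SSU processome genes and all 6 late small-subunit factors fell. IMP4, a partner of the U3 snoRNA, showed the deepest fall of the 51 genes, from 99.2, 90.7 and 90.7 CPM to 29.6, 35.8 and 35.0 CPM (-1.502, SE 0.09, edgeR adjusted p = 2.93e-07). HEATR1 fell from 454, 447 and 457 CPM to 198, 184 and 194 CPM (-1.26), and UTP20 from 186, 178 and 185 CPM to 110.3, 109.6 and 107 CPM (-0.77). The groups were clearly separate in each. TSR1 fell from 209, 206 and 201 CPM to 111, 119 and 112 CPM (-0.87, SE 0.06, edgeR adjusted p = 8.85e-07), and NOB1 only from 81.6, 76.4 and 72.8 CPM to 51.1, 65.0 and 60.6 CPM (-0.41, SE 0.09, edgeR adjusted p = 0.00362). Of the 15 large-subunit factors 14 fell. MRTO4, which holds the place of the ribosomal stalk in the precursor, fell from 62.6, 61.0 and 51.6 CPM to 18.2, 22.9 and 23.2 CPM (-1.47, SE 0.11, edgeR adjusted p = 2.12e-06). RRP1B fell from 182, 184 and 175 CPM to 72.4, 74.5 and 71.2 CPM (-1.33) and the helicase DDX18 from 167, 169 and 168 CPM to 99.6, 83.3 and 89.2 CPM (-0.91). RRP1, the paralogue of RRP1B, fell less (-0.43, SE 0.13, edgeR adjusted p = 0.0162), and its groups overlapped.

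Of the 107 further genes 98 fell and 1 rose, with a median of -0.68. POP1 fell from 92.9 to 31.8 CPM (log2 fold change -1.57, SE 0.07, edgeR adjusted p = 6.65e-08) and POLR1G from 20.2 to 7.14 CPM (log2 fold change -1.52, SE 0.12, edgeR adjusted p = 2.27e-06), and EXOSC6, of the exosome, was the rise (log2 fold change 0.31, SE 0.07, edgeR adjusted p = 0.0027). All 10 proliferation genes fell too, from a summed 2993.6 to 3049.9 CPM with vehicle to 1619.8 to 1677.3 CPM with DOX, MKI67 among them (log2 fold change -0.96, SE 0.06, edgeR adjusted p = 7.9e-07). COL1A1 rose from 58.1, 51.6 and 51.8 CPM to 79.0, 122 and 107 CPM and PECAM1 from 7.16, 6.65 and 6.42 CPM to 9.38, 8.66 and 10.1 CPM. ERBB2 (log2 fold change 0.82) and ESR1 (1.45) rose too and VIM fell (-0.18), so that all 5 markers tested were called. The part of proliferation and of these markers in the members' fall was not tested.

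The hexamer CACGTG, the E-box to which MYC and its partner MAX bind, was looked for in the promoters of the members, from 250 bases before to 50 after the RefSeq gene start (GRCh38.p14). Of 51 genes 45 had a promoter in the table, and 17 of these (37.8%) held the hexamer at least once, against 7.26% of all 35116 promoters of that length and 8.34% of 22199 promoters of coding genes. CACGTG reads the same on both strands, no second motif was searched, and a match is only a run of letters and not a bound site. The members were taken as known MYC targets, so this share is not an independent finding. The sequences of 7 of the 17 genes, those given above library by library, are shown 5′ to 3′ on the gene's strand, with the hexamer in capitals and 12 bases on either side, except for NOP2, whose hexamer lies too near the end of the promoter in the table for such a window.
FBL, chr19:39846356-39846385, minus strand: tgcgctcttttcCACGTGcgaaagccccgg
NOP10, chr15:34343289-34343318, minus strand: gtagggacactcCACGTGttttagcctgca
NOP10, chr15:34343130-34343159, minus strand: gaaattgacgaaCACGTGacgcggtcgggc
IMP4, chr2:130342682-130342711, plus strand: gcggtcctaagtCACGTGtgacattctgta
IMP4, chr2:130342900-130342929, plus strand: ttctcccggaccCACGTGgaagcggcactc
UTP20, chr12:101280083-101280112, plus strand: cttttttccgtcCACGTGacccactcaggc
LTV1, chr6:143843354-143843383, plus strand: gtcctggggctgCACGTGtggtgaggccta
EBNA1BP2, chr1:43172790-43172819, minus strand: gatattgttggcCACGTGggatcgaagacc
MRTO4, chr1:19251807-19251836, plus strand: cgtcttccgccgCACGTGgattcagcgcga
The hexamer lay upstream of the start in 8 of its 19 occurrences in members, after it in 10 and across it in 1. On MYC silencing the median log2 fold changes of members with the hexamer and of members without it were -1.03 over 17 genes and -1.06 over 28 (a description, not tested).

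The falls on MYC silencing and the mixed changes on MUC1 silencing were compared in 1 model with a term for their difference. In 44 of 51 members the change on MUC1 silencing was more positive than on MYC silencing, and in none was it more negative (nor at an unadjusted p below 0.05 or with DESeq2), against 26.0% and 26.9% of 21585 genes tested. The median difference was 0.98 on the log2 scale over the members and 0.049 over all genes. MRTO4 differed most (1.87, SE 0.14, edgeR adjusted p = 4.25e-09), with 28.2, 25.5 and 28.0 CPM and 37.2, 37.4 and 32.9 CPM in the tet-MUC1shRNA line without and with DOX. NIP7, of the large subunit, stood at 61.4, 64.5 and 65.7 CPM and 75.7, 75.1 and 65.5 CPM in the tet-MUC1shRNA line and at 100.4, 106 and 104 CPM and 43.0, 36.8 and 41.3 CPM in the tet-MYCshRNA line (1.56, SE 0.10, edgeR adjusted p = 4.28e-10). NOP16, whose rise on MUC1 silencing was not called without DOX replicate 2, stood at 21.6, 21.9 and 21.2 CPM and 24.5, 25.2 and 22.4 CPM, and at 50.2, 51.7 and 46.3 CPM and 19.97, 17.4 and 20.8 CPM (1.54, SE 0.12, edgeR adjusted p = 4.12e-09). The 7 members without a call were UBTF, RRN3, NOP10, IMP3, NOB1, RRP1 and NOP2. All 10 proliferation genes were called more positive too, with a median of 0.83. Of 7 markers tested KRT8 (4.20), KRT18 (4.08) and VIM (0.34) were called more positive, ERBB2 (-1.09), PECAM1 (-0.89) and COL1A1 (-0.45) more negative. The part of these genes in the members' difference was not tested.

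Both lines received the same dose of DOX. Across the 51 genes the 2 sets of log2 fold changes gave a Pearson r of 0.147, a description over genes that are not independent. The lines differ in passage, in their vehicle levels and in how far the target transcript fell. MUC1 itself rose on MYC silencing, from a mean of 69.0 CPM with vehicle to 166.9 CPM with DOX (log2 fold change 1.25, SE 0.11, edgeR adjusted p = 5.06e-06). None of this can be told apart from the target in the comparison of the 2 lines.

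The level of the MYC transcript alone did not order the libraries by member level. MYC was lowest in 2D, at 90.5, 87.4 and 78.4 CPM, and similar in DOX-treated tet-MYCshRNA mammospheres (244, 279 and 297 CPM) and in tet-MUC1shRNA mammospheres (241, 255 and 239 CPM with vehicle and 292, 294 and 273 CPM with DOX), whereas the members were lowest in the DOX-treated tet-MYCshRNA group. Fibrillarin gives an example, with FBL at 76.5, 88.3 and 90.0 CPM there, 100.4, 106 and 104 CPM in 2D and 139, 144 and 129.6 CPM in DOX-treated tet-MUC1shRNA mammospheres. MYC protein was not measured in these libraries.

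**Figure D4:**
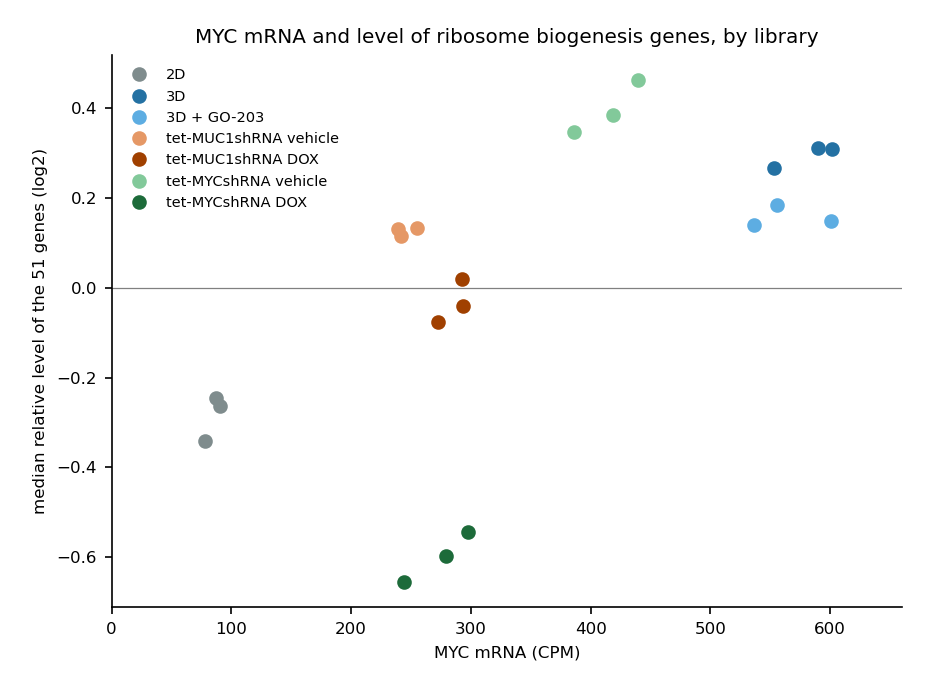
MYC mRNA in CPM (horizontal axis) and the median over the 51 genes of the log2 level relative to each gene's own mean (vertical axis) for each of the 21 libraries, coloured by group. DOX-treated tet-MYCshRNA libraries lie at 243.9 to 297.4 CPM of MYC and below all others on the vertical axis, while tet-MUC1shRNA libraries at 238.9 to 293.5 CPM lie near 0.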

How the data were processed

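Poly(A) RNA of BT-549 cells, a mesenchymal triple-negative breast cancer line, was sequenced in 21 libraries in 7 groups of 3, mapped to groups by their titles. The authors prepared stranded mRNA libraries and deposited raw read counts per gene, aligned to GRCh38 with STAR 2.7.3a after CASAVA 1.8.2 per the submitters' processing notes, which also name DESeq2. The study's methods name featureCounts as the counter. The annotation release and the settings for strand, mates and shared reads were not given in the sources used here. Empty cells (4952 to 7587 rows, depending on the group) were read as 0, and no member had one. Depth ran from 38026597 to 99751717 counts, and the lowest count of a member in any library was 4, for NOP2.

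Counts were tested in R 4.3.3 with edgeR 4.0.16 (filterByExpr, TMM factors, quasi-likelihood F test, Benjamini-Hochberg adjustment over all genes tested), each comparison on its own 6 libraries and each difference between comparisons on 12. Calls were made at an adjusted p below 0.1. The SE is the absolute log2 fold change divided by the square root of F. Per-library levels are CPM with TMM factors over all 21 libraries, and relative levels are log2(CPM + 0.01) minus the gene's mean. The scripts were tested on simulated data with known changes. DESeq2 1.42.0, other scalings, filters, thresholds and sample sets were tried as alternatives, and each library was left out in turn.

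The members and the gene lists were chosen with earlier results of these data known. The genes named with full values were the 2 of each role with the highest mean CPM, and the 3 largest called rises and falls of each comparison. Others were named after their values were seen. Same-numbered libraries were not paired, since the labels give no shared origin.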

Additional observations from a re-analysis of the deposited data

Results flagged for a closer look

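The effect of DOX on these genes differed between the 2 hairpin lines. In 44 of 51 members the change on MUC1 silencing was more positive than the change on MYC silencing by a test of the difference itself (edgeR quasi-likelihood test, adjusted p below 0.1). Of all 21585 genes tested 26.0% had a more positive and 26.9% a more negative change, and all 10 proliferation genes were more positive too. The members with the largest differences were MRTO4 (1.8735 on the log2 scale), NIP7 (1.5638) and NOP16 (1.5407), all factors of the large subunit. Each of the 3 genes rose on MUC1 silencing and fell on MYC silencing. The rise of NOP16 was not called without DOX replicate 2 of the tet-MUC1shRNA line, and the libraries of NIP7 overlapped in that line. The lines also differ in passage, in vehicle levels and in how far the target fell, which cannot be told apart from the target.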

How the results depend on the processing

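With library size alone in place of TMM, the median of members in 3D against 2D was 0.5237, MUC1 silencing gave 29 rises and 11 falls with a median of 0.1436, which turned its sign, HEATR1 and RRP1B turned to 0.1374 and 0.1394 there, and the difference between MUC1 silencing and GO-203 gave 29 and 2 calls. At least 10 counts in every library turned the median on MUC1 silencing to 0.026, and no filter beyond 1 count left 5 members more negative on MUC1 silencing than with GO-203. Requiring a 1.5-fold change left 25 rises and 1 fall in 3D, 0 and 2 on MUC1 silencing, 0 and 1 with GO-203, and 0 and 0 for MUC1 silencing against GO-203. All 21 libraries in 1 fit left 0 rises with GO-203. With the vehicle group of the tet-MUC1shRNA line standing for 3D, 13 members fell, the median was 0.4227, and NOP56 (-1.3334), UTP4 (-0.5139), NCL (-0.4375), MRTO4 (-0.3002), NOP16 (-0.2213) and NOP58 (-0.1351) turned from called rises to called falls, as POLR1A (-0.3224) and SURF6 (-0.6452) turned without a call in 3D. With the tet-MYCshRNA line 1 fell, the median was 0.6834, LTV1 (0.1978), EBNA1BP2 (0.231) and GAR1 (0.386) turned from called falls to called rises, and UTP20 (0.3063), not called in 3D, turned too. The cause was not tested.

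Leaving out 1 library gave medians of 0.5707 to 0.6307 in 3D, -0.1292 to -0.0647 with GO-203 and -1.1074 to -0.9861 on MYC silencing. With GO-203 it gave 0 to 1 rises and 9 to 16 falls, the 9 without 3D replicate 1. On MYC silencing 48 to 49 members fell, and 43 to 46 were more positive on MUC1 silencing than on MYC silencing.

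With the replicate number as a replicate block, 3D gave 43 rises and 4 falls, MUC1 silencing 16 and 19, GO-203 1 and 19, and MYC silencing 0 and 48. No count moved by over 1.5 times. The numbers do not pair the samples, since the deviations of same-numbered libraries from their group means correlated at -0.1756 to 0.0808. Without NOP2, PPAN, LTV1 and IMP3, an alternative chosen after seeing the data, the 47 other members gave 40 rises and 3 falls in 3D, 15 and 17 on MUC1 silencing, 1 and 15 with GO-203, and 0 and 46 on MYC silencing. Of 1198 values of 79 named results, 1165 kept direction and call, 16 lost the call, 10 gained it and 7 turned. NOP2 had the lowest count of any member, 4, and shares exon bases with an overlapping gene.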
